A study of Mus musculus with 4 samples.

Results

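The 7 genes described here encode receptors and receptor partners of myeloid cells and are 7 of the 32285 genes counted. They are Fcgr3, Fcer1g, Ly86, Csf1r, Csf3r, Csf2ra and Csf2rb. The genes were picked by name after earlier results of these data were known, so their differences between libraries are given as descriptions. Their transcripts were followed in cells chosen by other genes, through 4 gates on raw counts. A count here is a unique molecular identifier (UMI), which stands for 1 captured RNA molecule. The Hlf gate took cells with at least 1 UMI of Hlf, a transcription factor gene of stem and early progenitor cells. The Mpo gate took cells with at least 5 UMIs of Mpo and under 10 of Elane, which encode the granule proteins myeloperoxidase and neutrophil elastase. The Elane-Cebpe gate took cells with at least 10 UMIs of Elane and at least 1 of Cebpe, a transcription factor gene of maturing granulocytes. The F13a1 gate took cells with at least 2 UMIs of F13a1, a coagulation factor gene expressed along the monocyte path.

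The cells were CD45.2+Kit+ mouse bone marrow cells taken 10 weeks after transplantation, and their libraries came from 5′ version 2 chemistry of 10x Genomics. Kit is the stem cell factor receptor, and CD45.2 is a leukocyte antigen often used to tell donor from host cells. The 3 libraries, 1 for each group, were labelled control Kit+ cells, Mll3/4 deleted Kit+ cells and Mll3/4SI Kit+ cells, called control, deleted and SI below. MLL3 and MLL4, encoded by Kmt2c and Kmt2d, are histone methyltransferases that act at enhancers. The labels do not expand SI, and they do not name a Cre driver, the agent or time of deletion, the donor strain, or the age, sex or number of mice. A 4th library, of control B220lo cells, was not used here.

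These receptors are how immature myeloid cells sense their surroundings. Fcgr3 binds immunoglobulin G complexes and signals through the shared γ chain encoded by Fcer1g, which also serves the IgE receptor of mast cells and basophils. Ly86 encodes MD-1, the partner of the Toll-like receptor homologue CD180. Csf1r and Csf3r are the receptors for macrophage and granulocyte colony-stimulating factor, while Csf2ra encodes the ligand-specific chain and Csf2rb the common β chain of the granulocyte-macrophage colony-stimulating factor receptor.

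In the positions of the GENCODE M21 annotation of mouse build GRCm38, Fcgr3 lies on chromosome 1 from 171051174 to 171064935 on the minus strand. Fcer1g lies on the same chromosome and strand, from 171229572 to 171234365. Ly86 spans 37345208 to 37419036 of chromosome 13 and Csf3r 126024550 to 126044440 of chromosome 4, both on the plus strand. Csf2rb spans 78325752 to 78353847 of chromosome 15 on the plus strand, next to its close relative Csf2rb2, at 78282507 to 78305721 on the minus strand. Csf2ra lies at 61223957 to 61228429 of chromosome 19, minus strand. Reads of Csf2rb and Csf2rb2, and of Fcgr3 and its relatives Fcgr2b and Fcgr4, may not be told apart fully, so counts of these genes are uncertain to that extent.

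The promoters of an Fc receptor, of its shared signalling chain and of a growth-factor receptor chain are shown because these genes differed between the libraries in different directions in the results that follow. They cover the 250 bases before a RefSeq start in build GRCm38.p6, 5′ to 3′ along the gene, on the minus strand. The windows are chr1:171059404-171059653 for Fcgr3, chr1:171234350-171234599 for Fcer1g and chr19:61228419-61228668 for Csf2ra. Capitals mark matches to GAGGAA, the core bound by PU.1 and other ETS factors, or to TTGCNNAA, a C/EBP motif, on either strand.
Fcgr3: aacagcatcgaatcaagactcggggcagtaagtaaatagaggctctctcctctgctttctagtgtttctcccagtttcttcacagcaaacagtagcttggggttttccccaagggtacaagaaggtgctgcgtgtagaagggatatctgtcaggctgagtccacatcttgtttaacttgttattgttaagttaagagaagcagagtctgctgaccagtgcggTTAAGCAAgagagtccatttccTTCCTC
Fcer1g: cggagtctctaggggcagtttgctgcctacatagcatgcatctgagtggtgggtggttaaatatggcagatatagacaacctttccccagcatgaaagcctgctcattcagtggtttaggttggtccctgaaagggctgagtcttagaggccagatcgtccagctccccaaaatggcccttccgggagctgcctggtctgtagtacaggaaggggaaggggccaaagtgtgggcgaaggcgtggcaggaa
Csf2ra: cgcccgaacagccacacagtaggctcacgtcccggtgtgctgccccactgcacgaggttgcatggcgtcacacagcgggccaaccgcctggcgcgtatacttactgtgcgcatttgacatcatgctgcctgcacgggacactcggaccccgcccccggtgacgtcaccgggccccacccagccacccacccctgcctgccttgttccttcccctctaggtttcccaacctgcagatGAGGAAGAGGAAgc
The Fcgr3 promoter held GAGGAA on the reverse strand 6 bases before the start and TTGCNNAA on the reverse strand 28 bases before it. Another RefSeq start of Fcgr3 puts the same matches at positions -15 and -37. Both Fcgr3 windows lie inside the gene span given above, not at its end. The Csf2ra promoter held 2 adjoining copies of GAGGAA. The Fcer1g window held neither motif, and neither did that of Ly86, whereas Csf3r had 1 GAGGAA match. Of all 32851 RefSeq promoter windows of this length, 23.3% held GAGGAA and 9.56% held TTGCNNAA, so a match is a description of the letters, not a site. Csf1r and Csf2rb were not matched to a promoter entry.

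After filtering, 11051 control, 13747 deleted and 11501 SI cells were kept. The libraries held 163751605, 130424242 and 166327773 UMIs, in that order, with median depths of 11964, 6761 and 12148 UMIs per barcode. Barcodes shared between pairs of libraries numbered 214 to 254. The deleted library stood apart in cell makeup, since 12128 of its cells carried at least 5 UMIs of the B-cell receptor gene Cd79a and fell in no gate, against 30 control and 20 SI cells. It also stood apart in sex-linked RNA. Transcripts of 4 Y-linked genes were at 149 CPM in the deleted library, where CPM is the count of a gene per 1000000 UMIs of the cells summed. They were at 0.0244 CPM in control and at 0.0301 CPM in SI, so sex and genotype cannot be told apart in comparisons with the deleted library. In cells of any gate Kmt2c stood at 57.7 CPM in control, 42.4 in deleted and 61.4 in SI, and Kmt2d at 24.7, 18.1 and 20.1 CPM, but 5′ reads outside a deleted part do not check a deletion.

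The gates held few deleted cells. The Hlf gate had 2493 control, 186 deleted and 3238 SI cells, and the Mpo gate 1681, 118 and 3816. The Elane-Cebpe gate had 2042, 228 and 1441 cells, and the F13a1 gate 2047, 394 and 1131. Between 36.1% and 57.5% of the cells of a gate also lay in another gate, so the gates are not separate populations. Of the marker lists, 13 granulocyte genes summed to 49581 to 56853 CPM in the Elane-Cebpe gate, and 10 monocyte genes to 4006 to 4544 CPM in the F13a1 gate, their highest levels among the 4 gates in every library. The lists hold the gate genes themselves, and the monocyte list also holds Csf1r, so this is a description of the gates. The granulocyte list was also high in the F13a1 gate, at 40448 to 47841 CPM, and in the Hlf gate, at 17481 CPM in control, 23625 in deleted and 13739.6 in SI. In the Hlf gate all 11 stem and progenitor markers were detected in each library, but their sum did not set it apart from the Mpo gate. The sum was 967 CPM in control, 924 in deleted and 1069 in SI there, against 1010.0, 1052 and 854 CPM in the Mpo gate. It was lower in the Elane-Cebpe gate, at 360, 269 and 320 CPM, and in the F13a1 gate, at 433, 322 and 429 CPM.

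Transcripts of other cell types differed between the libraries within the gates. A list of 10 B-lineage genes summed to 44.6 to 65.9 CPM in the control gates, 44.5 to 53.7 CPM in the SI gates and 865 to 3319 CPM in the deleted gates. All 10 were detected in every deleted gate, with Cd79a at 210 to 880 CPM against at most 1.69 CPM in any control gate. A list of 10 mast cell and basophil genes summed in the Mpo gate to 547 CPM in control, 350.04 in deleted and 2000.6 in SI, and Cpa3, a mast cell protease, stood there at 259.8 CPM, 173 CPM and 1130.02 CPM. Not all genes of the list were higher in SI. In the Mpo gate Mcpt8 stood at 36.9 CPM in control and 23.4 in SI, and Prss34 at 26.4 and 0.619 CPM. In the F13a1 gate Mcpt8 was above control in SI, at 24.8 against 15.7 CPM. Prss34, Gzmb, Cma1 and Tpsb2 of that list were at 0 in the deleted Mpo gate. The sum of the list was above control in SI in the other gates too. Its sums in control and SI were 359 and 1142 CPM in the Hlf gate, 377 and 681 in the Elane-Cebpe gate, and 146 and 335 in the F13a1 gate. A list of 10 erythroid genes was below control in both other libraries, summing to 835 CPM in control, 192 in deleted and 273 in SI in the Hlf gate, and to 596, 118 and 205 CPM in the Mpo gate. Pf4, a platelet factor gene of megakaryocytes, stood in the Hlf gate at 198, 41.7 and 55.0 CPM. A list of 7 dendritic cell genes summed in the F13a1 gate to 201 CPM in control, 202 in deleted and 391 in SI. A list of 6 NK and T cell genes summed in the Hlf gate to 459.3, 373 and 82.1 CPM. Nkg7 made up nearly all of these sums, at 458.6, 373 and 81.2 CPM, and was the only 1 of the 6 to reach 10 CPM. It stood higher in the Elane-Cebpe gate, at 901, 929 and 421 CPM, so the sums do not show NK or T cells. The part of the erythroid, megakaryocyte and dendritic cell transcripts, and of cells with Nkg7, in the receptor levels was not tested.

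**Figure D1:**
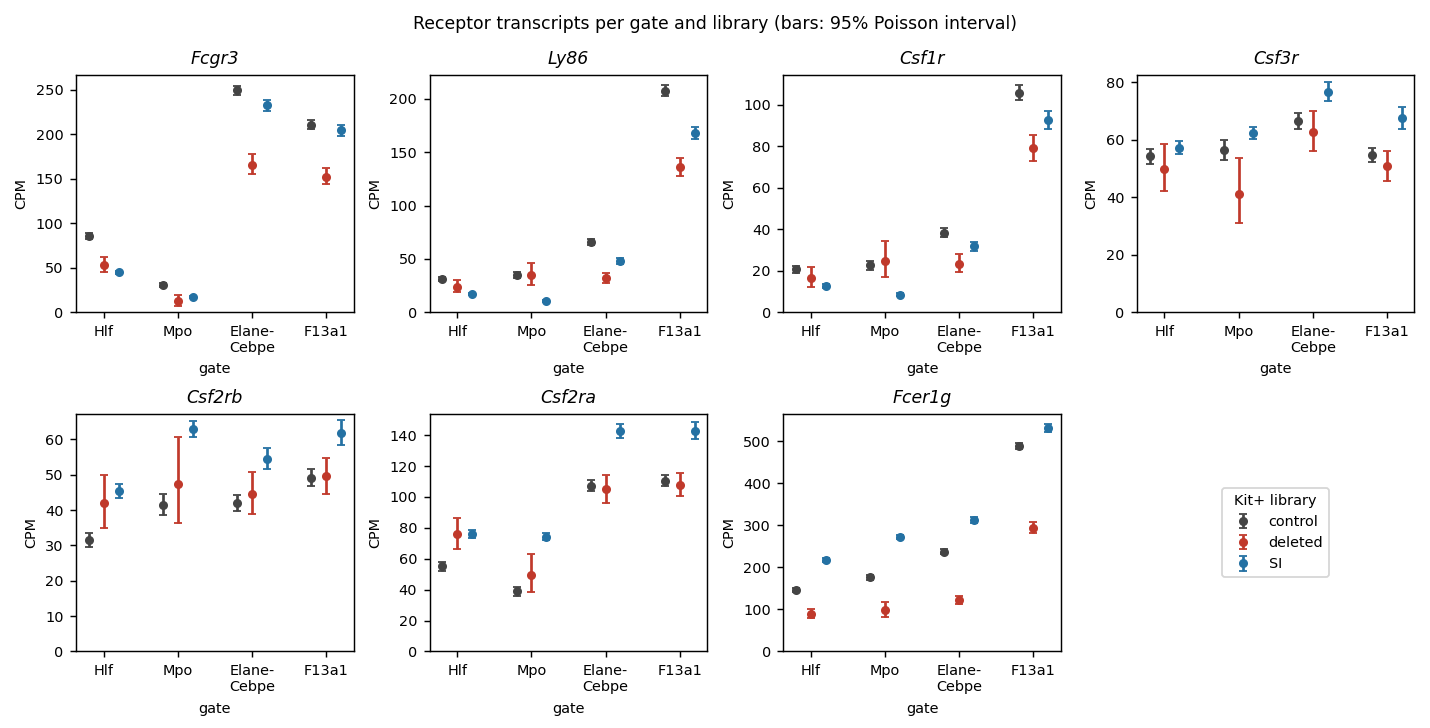
Level of each of the 7 transcripts (vertical axis, CPM) in the 4 gates (horizontal axis) of the control, deleted and SI libraries; points are summed counts of 1 library and bars 95% Poisson intervals. Ly86, Csf1r and Fcer1g stood highest in the F13a1 gate in all 3 libraries, and Fcgr3 lowest in the Mpo gate.

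Fcgr3 was highest in the Elane-Cebpe gate and next in the F13a1 gate. In the Elane-Cebpe gate it stood at 249 CPM in control (95% Poisson interval 244 to 255), 166 in deleted (155 to 178) and 232 in SI (227 to 238). Intervals of this kind cover counting error only, and there are no replicates. In the F13a1 gate the levels were 211, 152 and 204 CPM, in the Hlf gate 85.8, 52.8 and 44.7 CPM, and in the Mpo gate 30.6, 12.2 and 16.6 CPM. The order of the gates was the same in each library, although in the deleted library the interval for the ratio of the 2 highest gates, 0.994 to 1.19, included 1. Within the F13a1 gate Fcgr3 went with Elane. It stood at 224 CPM in control, 159 in deleted and 219 in SI in the cells with at least 10 Elane UMIs, which were 1878 of 2047, 354 of 394 and 970 of 1131 cells, and at 26.6, 27.6 and 73.0 CPM in the rest. The Elane-Cebpe level was 8.16 times the Mpo gate level in control, 13.6 times in deleted and 14.0 times in SI.

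Over all cells of a gate, Fcgr3 was lower in the deleted library than in control in all 4 gates. The ratio to control was 0.616 in the Hlf gate (95% exact binomial interval 0.522 to 0.723), 0.400 in the Mpo gate (0.227 to 0.656, from 16 deleted UMIs), 0.665 in the Elane-Cebpe gate (0.619 to 0.714) and 0.723 in the F13a1 gate (0.678 to 0.770). Without any cell that had a B-lineage UMI the Mpo gate ratio turned to 1.13 (0.486 to 2.26). With stricter gates the Hlf gate ratio was 0.398. In SI Fcgr3 was lowest relative to control in the Hlf gate, at 0.522 (0.491 to 0.554), and the Mpo gate, at 0.544 (0.488 to 0.607). It was near control in the Elane-Cebpe gate at 0.932 and the F13a1 gate at 0.969. In Hlf gate cells of no other gate the SI ratio was 0.690 (0.608 to 0.782). Over the whole SI Hlf gate, Elane stood at 0.584 times control, Cebpe at 0.501, F13a1 at 0.476, Mpo at 0.864 and Hlf at 1.03. The part of these differences in the Fcgr3 level was not tested. Over all cells of a gate, the SI library was the lowest of the 3 in the Hlf gate and the deleted library in the other gates. The order of these libraries was turned in the Mpo gate without cells that carried B-lineage UMIs, at 23.8 CPM in deleted and 16.0 in SI. It was also turned in Hlf gate cells of no other gate, at 14.4 CPM and 28.0 CPM. Both contrasts use the same control library. The related inhibitory receptor gene Fcgr2b did not follow this size of difference: its deleted ratios were 0.964, 0.927, 0.867 and 0.850 and its SI ratios 0.794, 0.964, 0.913 and 1.05, in the order Hlf, Mpo, Elane-Cebpe and F13a1. Fcgr4 stayed at or under 2.83 CPM in every gate and library.

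Over all cells of each gate Fcer1g, the signalling chain, was below control in the deleted library and above it in SI. It stood in the F13a1 gate at 488 CPM in control (481 to 496), 294 in deleted (282 to 307) and 531 in SI (521 to 542). In the Elane-Cebpe gate it was at 237, 122 and 313 CPM, in the Mpo gate at 176, 99.4 and 272 CPM, and in the Hlf gate at 146, 88.6 and 217 CPM. Every gate, taken whole, had the order deleted, control, SI from low to high. In the F13a1 gate this did not hold for most cells. In its cells with at least 10 Elane UMIs, 970 of the 1131 in SI, Fcer1g stood at 459 CPM in SI (449 to 469), below the 499.8 CPM of control (492 to 508), and at 292 CPM in deleted. The SI cells with fewer Elane UMIs stood at 1200.02 CPM against 329 in control. In the deleted Mpo gate the ratio turned to 1.24 without any cell that had a B-lineage UMI (0.898 to 1.67). The deleted ratios were 0.606 (0.534 to 0.686), 0.565 (0.470 to 0.673), 0.514 (0.473 to 0.559) and 0.602 (0.575 to 0.630) from the Hlf to the F13a1 gate. The SI ratios were 1.49 (1.43 to 1.54), 1.55 (1.49 to 1.61), 1.32 (1.28 to 1.36) and 1.09 (1.06 to 1.12).

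Partner, pathway and regulator genes were compared over all cells of each gate only. Their ratios were not taken without cells that carried B-lineage or mast cell UMIs. Tyrobp, which encodes DAP12, another adaptor with an activation motif, shared the direction in the deleted library, with ratios of 0.706, 0.494, 0.646 and 0.730. In SI its ratios were 0.920, 0.888, 1.18 and 1.11, so it was below control in the 2 gates where Fcer1g was furthest above it. The mast cell partners of the γ chain were far higher in SI. Fcer1a, the IgE-binding chain, stood in the Mpo gate at 27.0 CPM in control, 19.1 in deleted and 397 in SI, a ratio of 14.7 (13.4 to 16.1) for SI, and Ms4a2, the β chain of the same receptor, at 35.0, 30.6 and 133 CPM.

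**Figure D2:**
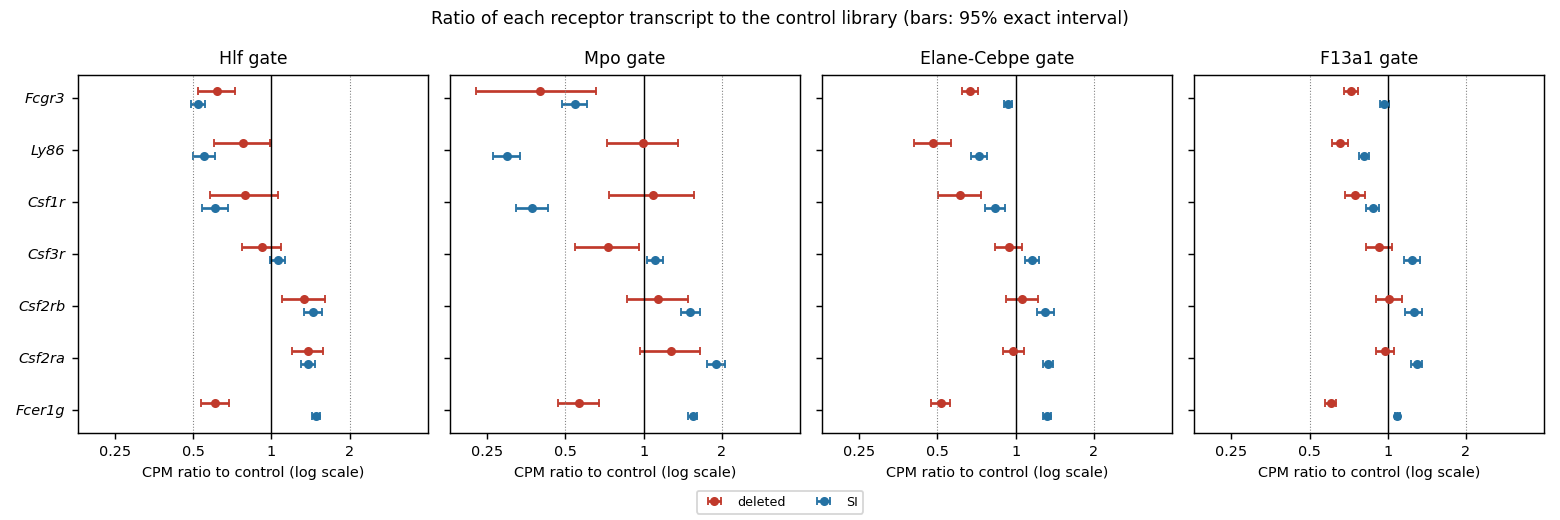
CPM ratio to the control library (horizontal axis, log scale) for each of the 7 genes (vertical axis) in each gate, deleted in red and SI in blue, with 95% exact binomial intervals and dotted lines at 0.5 and 2. Over all cells of a gate Fcer1g lies below 1 in deleted and above 1 in SI in all 4 gates, and Ly86 and Csf1r in SI lie furthest below 1 in the Mpo gate.

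Ly86 and Csf1r had nearly the same pattern. Ly86 stood in the F13a1 gate at 208 CPM in control, 136 in deleted and 168 in SI, and Csf1r there at 106, 79.0 and 92.6 CPM. In the Elane-Cebpe gate Ly86 was at 66.1, 31.7 and 47.9 CPM and Csf1r at 38.2, 23.4 and 31.7 CPM. Over all cells of these gates control was the highest of the 3 libraries for both genes, and deleted the lowest. In cells of no other gate the SI ratio of Csf1r was 1.03 (0.960 to 1.11) in the F13a1 gate and 1.002 (0.860 to 1.17) in the Elane-Cebpe gate. With cells thinned to 4000 UMIs before gating, the F13a1 gate SI ratios were 1.10 for Csf1r (0.966 to 1.25) and 0.957 for Ly86 (0.868 to 1.05). In the Mpo gate Ly86 was at 34.4, 34.4 and 10.2 CPM and Csf1r at 22.5, 24.5 and 8.39 CPM. In the Hlf gate Ly86 was at 31.0, 24.0 and 17.0 CPM and Csf1r at 20.7, 16.4 and 12.5 CPM. Over all cells of the Hlf and Mpo gates the SI library was the lowest for both genes. In cells of no other gate the deleted library was the lower of the pair for Csf1r in both gates and for Ly86 in the Hlf gate, from 2 to 5 deleted UMIs. F13a1 itself stood in the Mpo gate at 70.8 CPM in control, 223 in deleted and 12.7 in SI, and its part in the Ly86 and Csf1r levels was not tested.

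The ratios of Ly86 in the deleted library were 0.774 (0.601 to 0.983), 0.999 (0.721 to 1.35), 0.479 (0.406 to 0.563) and 0.655 (0.613 to 0.700) from the Hlf to the F13a1 gate. Those of Csf1r were 0.793, 1.09, 0.611 and 0.746, and the intervals in the Hlf and Mpo gates, 0.582 to 1.06 and 0.733 to 1.56, included 1. Without any cell that had a B-lineage UMI the Csf1r ratio of the Hlf gate was 1.32 (0.565 to 2.65, from 8 UMIs). Without cells that carried B-lineage UMIs the Mpo gate ratios were 2.14 for Ly86 (1.47 to 3.01) and 1.89 for Csf1r (1.15 to 2.93). In Mpo gate cells of no other gate the Csf1r ratio was 0.256 (0.0306 to 0.942). The deleted Ly86 ratio of the Elane-Cebpe gate was 0.222 without any cell that had a B-lineage UMI (0.101 to 0.423, from 9 UMIs) and 0.236 in cells of no other gate (0.131 to 0.393, from 15). In SI the Ly86 ratios were 0.550, 0.298 (0.264 to 0.335), 0.725 and 0.810, and the Csf1r ratios 0.606, 0.373 (0.324 to 0.429), 0.830 and 0.875. The gene of the MD-1 partner, Cd180, stood at 0.792 to 5.35 CPM in the deleted gates and at 6.75 CPM or more in the control gates, with a ratio of 0.357 in the Mpo gate (0.142 to 0.745, from 7 UMIs). In SI the Cd180 ratio was between 0.780 and 1.30.

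Csf3r, the granulocyte colony-stimulating factor receptor, varied little between gates. It stood at 54.2, 56.5, 66.5 and 54.7 CPM in control from the Hlf to the F13a1 gate, at 49.9, 41.3, 62.8 and 50.7 CPM in deleted and at 57.2, 62.4, 76.8 and 67.6 CPM in SI. Its highest and lowest gates differed 1.23 times in control, 1.52 times in deleted and 1.34 times in SI. The deleted ratios lay between 0.731 and 0.943, and the intervals of 3 of the 4 included 1, the Mpo gate being the exception (0.545 to 0.961). That ratio was 1.04 without cells that carried B-lineage UMIs (0.697 to 1.49), 1.13 when cells with mast cell UMIs were left out too (0.733 to 1.68) and 1.14 without any B-lineage UMI (0.620 to 1.93). With cells thinned to 4000 UMIs before gating, the deleted ratios of the Hlf gate, 0.538 (0.266 to 0.97504), and of the Elane-Cebpe gate, 0.576 (0.337 to 0.926), had intervals below 1 as well. The SI ratios were 1.06, 1.10, 1.15 and 1.24, and that of the Hlf gate had an interval of 0.990 to 1.13.

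The 2 chains of the granulocyte-macrophage colony-stimulating factor receptor were higher in SI. Csf2ra stood at 55.0, 39.0, 107 and 111 CPM in control, at 75.8, 49.7, 105 and 108 CPM in deleted and at 76.2, 74.2, 143 and 143 CPM in SI, from the Hlf to the F13a1 gate. Its SI ratios were 1.38 (1.30 to 1.47), 1.90 (1.75 to 2.06), 1.33 (1.27 to 1.40) and 1.29 (1.23 to 1.36). Csf2rb stood at 31.5, 41.5, 42.0 and 49.1 CPM in control, at 42.0, 47.4, 44.5 and 49.5 CPM in deleted and at 45.4, 62.9, 54.5 and 61.8 CPM in SI. Its SI ratios were 1.44 (1.33 to 1.56), 1.51 (1.40 to 1.64), 1.30 (1.21 to 1.40) and 1.26 (1.17 to 1.36).

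In the deleted library the same chains were above control in the Hlf gate, with ratios of 1.38 for Csf2ra (1.20 to 1.58) and 1.33 for Csf2rb (1.10 to 1.61). In Hlf gate cells of no other gate the ratios were 1.05 (0.785 to 1.38) and 1.14 (0.745 to 1.67), both with intervals that included 1, and with stricter gates the Csf2rb ratio was 0.833. Over all cells of the other 3 gates their deleted intervals included 1. In other settings some lay above 1 and some below. In the Elane-Cebpe gate the Csf2rb ratio was 1.29 (1.03 to 1.60) without cells that carried B-lineage UMIs. The Csf2ra ratio there was 0.832 (0.713 to 0.965) in cells of no other gate. With cells thinned to 4000 UMIs before gating, the Csf2ra ratio was 1.64 (1.11 to 2.35) in the Mpo gate and 0.806 (0.650 to 0.990) in the F13a1 gate. Il3ra, the ligand-binding chain that pairs with the common β chain for interleukin 3, had SI ratios of 1.43, 1.38, 1.35 and 1.17 and deleted ratios of 0.895, 0.871, 0.937 and 0.873. Csf2rb2, the interleukin 3-specific β chain, was low, but in the SI Mpo gate it stood at 19.4 CPM against 5.65 CPM in control, a ratio of 3.43 (2.79 to 4.25).

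Counted against a fold of 2 in CPM, with a mean of at least 10 CPM over the 2 libraries, few of the 7 genes passed in any gate. In the deleted Hlf gate 0 passed, beside 2.74% of 8868 genes (1.53% lower and 1.21% higher). In the deleted Mpo gate 1 passed, Fcgr3 on the lower side, beside 5.05% of 9004 genes (1.63% lower and 3.42% higher). In the deleted Elane-Cebpe gate 1 passed, Ly86 on the lower side, beside 2.07% of 8323 genes (1.15% lower and 0.913% higher). In the deleted F13a1 gate 0 passed, beside 2.38% of 8489 genes (0.931% lower and 1.45% higher). In the SI Mpo gate 2 passed, Ly86 and Csf1r on the lower side, beside 2.38% of 8798 genes (1.19% lower and 1.18% higher). In SI 0 passed in the other gates, beside 1.58% of 8911 genes in the Hlf gate (0.617% lower and 0.965% higher), 0.859% of 8385 in the Elane-Cebpe gate (0.286% lower and 0.572% higher) and 1.13% of 8486 in the F13a1 gate (0.259% lower and 0.872% higher). Some of these values chose the genes, so nothing is read from the shares.

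All 7 genes reached the minimum level in every gate. The median log2 ratio of the 7, with 1 CPM added to each level, was -0.32 in the deleted Hlf gate, -0.59 in the Elane-Cebpe gate and -0.42 in the F13a1 gate, beside 0.012, 0.0042 and 0.037 for all genes tested. In the deleted Mpo gate it was -0.0014 beside 0.073. In SI the medians were 0.076, 0.14, 0.20 and 0.12 from the Hlf to the F13a1 gate, beside 0.029, 0.0086, 0.023 and 0.039. Of the 7 genes, 4 were above control and 3 below in every SI gate, where 40.9%, 47.9%, 42.5% and 38.0% of all genes tested were below. In the deleted library 5, 4, 6 and 6 of the 7 were below, beside 47.9%, 40.4%, 49.2% and 42.3% of all genes.

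The deleted differences partly moved with B-lineage UMIs in the gated cells. Cells with 2 or more UMIs in sum over a short set of B-lineage genes that includes Cd79a, Cd79b, Ebf1, Pax5 and Vpreb3 made up 53.8% to 61.9% of the deleted gates, 7.67% to 20.3% of the control gates and 10.9% to 22.6% of the SI gates. Cd79b alone stood at 39.6 to 52.6 CPM in the control gates. In the deleted Mpo gate Fcer1g stood at 53.4 CPM in the 73 cells with such UMIs and at 173 CPM in the 45 cells without, where control was at 177 CPM. In the deleted F13a1 gate the levels were 289.9 CPM with and 302 CPM without, and control cells without such UMIs were at 487 CPM.

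Without these cells the deleted Fcer1g ratios were 0.768 (0.644 to 0.909), 0.974 (0.778 to 1.21), 0.748 (0.663 to 0.840) and 0.620 (0.576 to 0.667) from the Hlf to the F13a1 gate. The Fcgr3 ratios were 0.655, 0.754, 0.768 and 0.796, and that of the Mpo gate rested on 12 UMIs, with an interval of 0.387 to 1.33. Ly86 in the deleted Mpo gate stood at 69.6 CPM, 2.14 times control (1.47 to 3.01), in place of 0.999, and Csf1r at 1.89 times (1.15 to 2.93). In the F13a1 gate the Ly86 ratio was 0.648 and in the Elane-Cebpe gate 0.560, above the fold of 2. Of the 5 ratios that this moved by more than 1.5 times, all were in the Mpo gate. Csf2rb was among them, at 1.75 (1.22 to 2.45) in place of 1.14. Fcgr3 thus no longer passed the fold of 2 in the deleted Mpo gate, and Ly86 passed it on the higher side. Without any cell that had even 1 such UMI, 21 deleted cells were left in the Mpo gate, and Fcgr3 there was at 1.13 times control (0.486 to 2.26). Fcer1g was then at 1.24 times in the Mpo gate and at 0.678 (0.601 to 0.763) in the F13a1 gate.

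**Figure D3:**
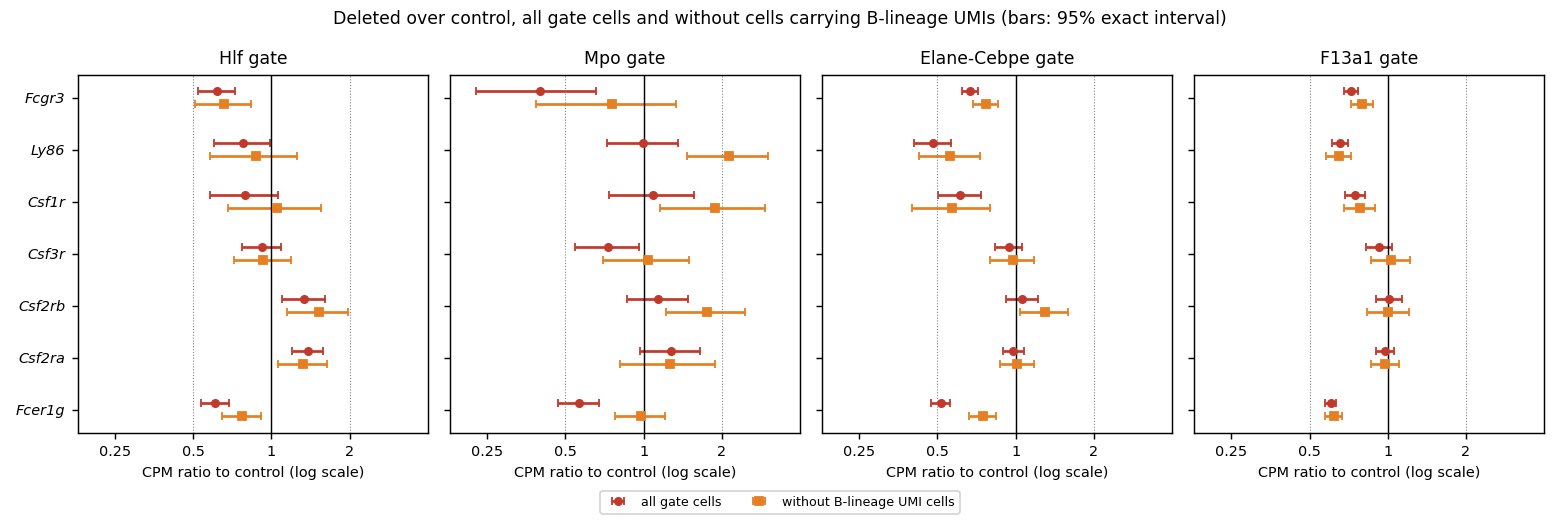
CPM ratio of the deleted to the control library (horizontal axis, log scale) for each gene and gate, over all gate cells (red) and over cells with under 2 B-lineage UMIs (orange), with 95% exact binomial intervals. In the F13a1 gate the Fcer1g ratio is 0.602 over all cells and 0.620 without B-lineage UMIs, whereas in the Mpo gate it goes from 0.565 to 0.974.

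Some SI differences moved with mast cell, basophil and megakaryocyte UMIs, most of all those of Ly86 and Csf1r in the Mpo gate. Others moved little, such as Csf2rb in the F13a1 gate, at 1.27 without such cells in place of 1.26. Cells with 2 or more UMIs of Cpa3, Fcer1a, Ms4a2, Mcpt8, Prss34 and Pf4 together made up 33.1% of the control and 63.6% of the SI Hlf gate, and 41.0% and 75.6% of the Mpo gate. In the control Mpo gate Ly86 stood at 9.45 CPM in such cells and at 53.0 CPM in the rest, and in the SI Mpo gate at 5.82 and 26.5 CPM. Ly86 was thus lower in SI in both subsets of the Mpo gate. The set pools mast cell, basophil and megakaryocyte genes, so its cells need not be of the same kind in the 2 libraries. In the Mpo gate Pf4 stood at 70.4 CPM in control and 25.0 in SI, and Fcer1a at 27.0 and 397 CPM. Without such cells its Mpo gate ratio was 0.4999 (0.431 to 0.578) in place of 0.298, and the Csf1r ratio was 0.659 (0.554 to 0.783) in place of 0.373.

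In the Mpo gate Fcer1g did not separate these cells as Ly86 did. In the control Mpo gate it stood at 177 CPM with such UMIs and 175 CPM without, and in SI at 279 and 248 CPM. In the control Elane-Cebpe gate it was at 267 CPM without such cells and 237 CPM over all cells. In the control F13a1 gate these levels were 520 and 488 CPM. Without such cells its SI ratios were 1.34, 1.41, 1.25 and 1.14, all with intervals above 1. Csf2ra in the SI Mpo gate was at 1.99 times control (1.76 to 2.25), and Csf2rb there at 1.17 times in place of 1.51. Fcgr3 in SI was at 0.640 (0.586 to 0.699) in the Hlf gate and 0.681 (0.544 to 0.849) in the Mpo gate.

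**Figure D4:**
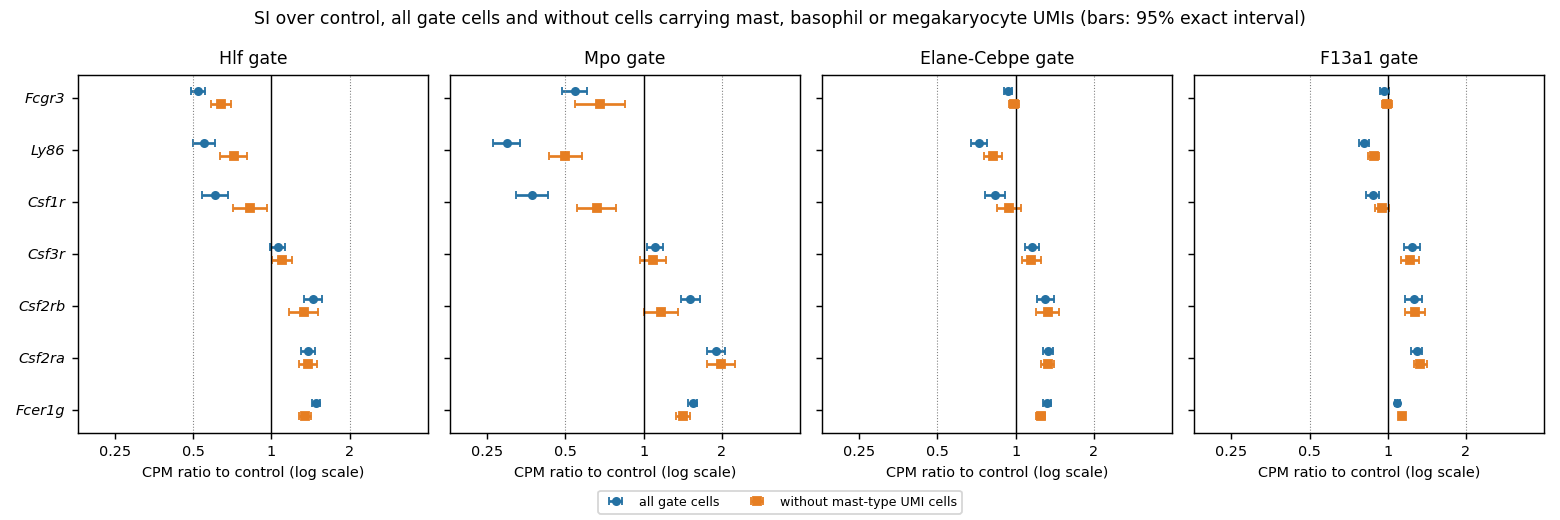
CPM ratio of the SI to the control library (horizontal axis, log scale) for each gene and gate, over all gate cells (blue) and over cells with under 2 mast cell, basophil or megakaryocyte UMIs (orange), with 95% exact binomial intervals. The largest shifts are those of Ly86 and Csf1r in the Mpo gate, from 0.298 to 0.4999 and from 0.373 to 0.659.

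Overlap of the gates bore on the levels of the Hlf and Mpo gate cells. In Hlf gate cells that lay in no other gate, 1312 control, 93 deleted and 1601 SI cells, Fcgr3 stood at 40.6, 14.4 and 28.0 CPM, and Ly86 at 10.9, 1.59 and 8.77 CPM. Fcer1g stood there at 86.7, 43.1 and 174 CPM. The deleted ratios in these cells were 0.354 for Fcgr3 (0.208 to 0.565, from 18 deleted UMIs) and 0.146 for Ly86 (0.0175 to 0.539, from 2). The SI ratios there were 0.804 for Ly86 (0.635 to 1.02) and 0.877 for Csf1r (0.679 to 1.13), with intervals that included 1. The SI ratios above 1 were larger there than over the whole gate. They were 2.01 for Csf2rb (1.74 to 2.33), 2.01 for Fcer1g (1.88 to 2.16), 1.60 for Csf2ra (1.45 to 1.78) and 1.16 for Csf3r (1.04 to 1.30). Csf1r stood at 8.98 CPM in control, 3.99 in deleted and 7.87 in SI. Its deleted ratio was 0.444, from 5 deleted UMIs, with an interval of 0.141 to 1.07 that included 1. In Mpo gate cells of no other gate the deleted ratio of Csf1r was 0.256, from 2 deleted UMIs (0.0306 to 0.942), and the SI ratio 0.487 (0.389 to 0.611). Ly86 there was at 0.588, from 8 UMIs (0.251 to 1.18), and Csf2rb at 0.638, from 16 UMIs (0.361 to 1.05), and both intervals included 1.

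The Elane-Cebpe gate split the same way. Its cells outside the F13a1 gate held Ly86 at 26.8 CPM in control, 7.08 in deleted and 21.7 in SI, and Fcer1g at 165, 61.5 and 289.6 CPM. Cells in both gates held Ly86 at 151, 59.5 and 109 CPM and Fcer1g at 392.4, 191 and 368 CPM. Fcgr3 differed less between these subsets than Ly86 and Fcer1g did, and most in the deleted library. It stood at 247, 146 and 224 CPM outside the F13a1 gate and 256, 188 and 253 CPM in both. Within the Elane-Cebpe gate, Ly86 and Fcer1g were thus higher in cells that also passed the F13a1 gate, in all 3 libraries.

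F13a1 gate cells with under 10 Elane UMIs were few, with 169 in control, 40 in deleted and 161 in SI. Fcer1g stood in them at 329 CPM in control (305 to 354), 337 in deleted (280.02 to 403) and 1200.02 in SI (1151 to 1250.43). Ly86 stood at 167, 119 and 278 CPM, Csf1r at 107, 113 and 197 CPM, and Fcgr3 at 26.6, 27.6 and 73.0 CPM. SI was the highest library for all 4 genes here, unlike in the F13a1 gate as a whole for Ly86, Csf1r and Fcgr3. Monocyte markers, a list that holds F13a1 and Csf1r, summed in these cells to 1832 CPM in control and 6341 CPM in SI. Of that list F13a1, at 559.9 and 512 CPM, and Irf8, at 308 and 233 CPM, were lower in SI. Dendritic cell markers summed to 288 CPM in control and 1779.7 CPM in SI, with Siglech and Xcr1 at 0 in both. Mast cell and basophil markers summed to 117 and 602 CPM. B-lineage markers summed to 6824 CPM in the 40 deleted cells and to 139 CPM in control. Their part in the differences was not tested.

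Shares of cells with a UMI were compared after every cell was thinned to 2000 UMIs, since median depth in the gates ran from 9778 to 22059 UMIs and was highest in the deleted library in every gate but the Mpo gate. In the F13a1 gate a UMI of Fcer1g was found in 56.4% of control cells, 37.1% of deleted cells and 54.1% of SI cells, against 93.4%, 75.6% and 93.2% before thinning. Fcgr3 was seen in 32.4%, 24.0% and 34.0% of these cells, and in 82.9%, 76.6% and 81.7% before thinning. In the Mpo gate Fcer1g was found in 28.1% of control cells, 7.02% of deleted cells (exact interval 3.08% to 13.4%) and 37.0% of SI cells, against 69.8%, 35.6% and 79.5% before thinning. The deleted library had the lowest share in each of these comparisons.

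Erythroid cells and the B-lineage cells of the deleted library were taken as a measure of background. The few B-lineage cells of control and SI were not used so, since Ly86 stood there at 195 and 399 CPM. In erythroid cells, those in no gate with at least 1 UMI of Klf1 and 10 of Car1 and median depths of 18008 to 19125.5 UMIs, Fcer1g was seen in 2.15% of control and 4.38% of SI thinned cells and Fcgr3 in 0.323% and 0.707%. Before thinning the Fcer1g shares were 10.8% and 19.2%. Among the 54 deleted erythroid cells 6 had a UMI of Fcer1g before thinning and 1 after it. In the deleted B-lineage cells, with a median depth of 6513 UMIs, Fcgr3 stood at 1.04 CPM, Ly86 at 0.713, Csf1r at 0.255, Csf3r at 0.415, Csf2rb at 0.511 and Fcer1g at 2.92 CPM. Each of these 6 was below its level in every deleted gate.

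Csf2ra came closer to its gate levels. It stood at 37.1 CPM in the deleted B-lineage cells, below its 49.7 to 108 CPM in the deleted gates, and at 15.1, 22.7 and 23.9 CPM in control, deleted and SI erythroid cells. After thinning, 7.89% of the deleted Mpo gate cells (exact interval 3.67% to 14.5%) and 7.73% of the deleted B-lineage cells had a Csf2ra UMI, against 39.0% and 24.1% before thinning. These shares cannot be told apart at this depth, and whether the Csf2ra UMIs of the B-lineage cells are free RNA or their own was not tested.

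**Figure D5:**
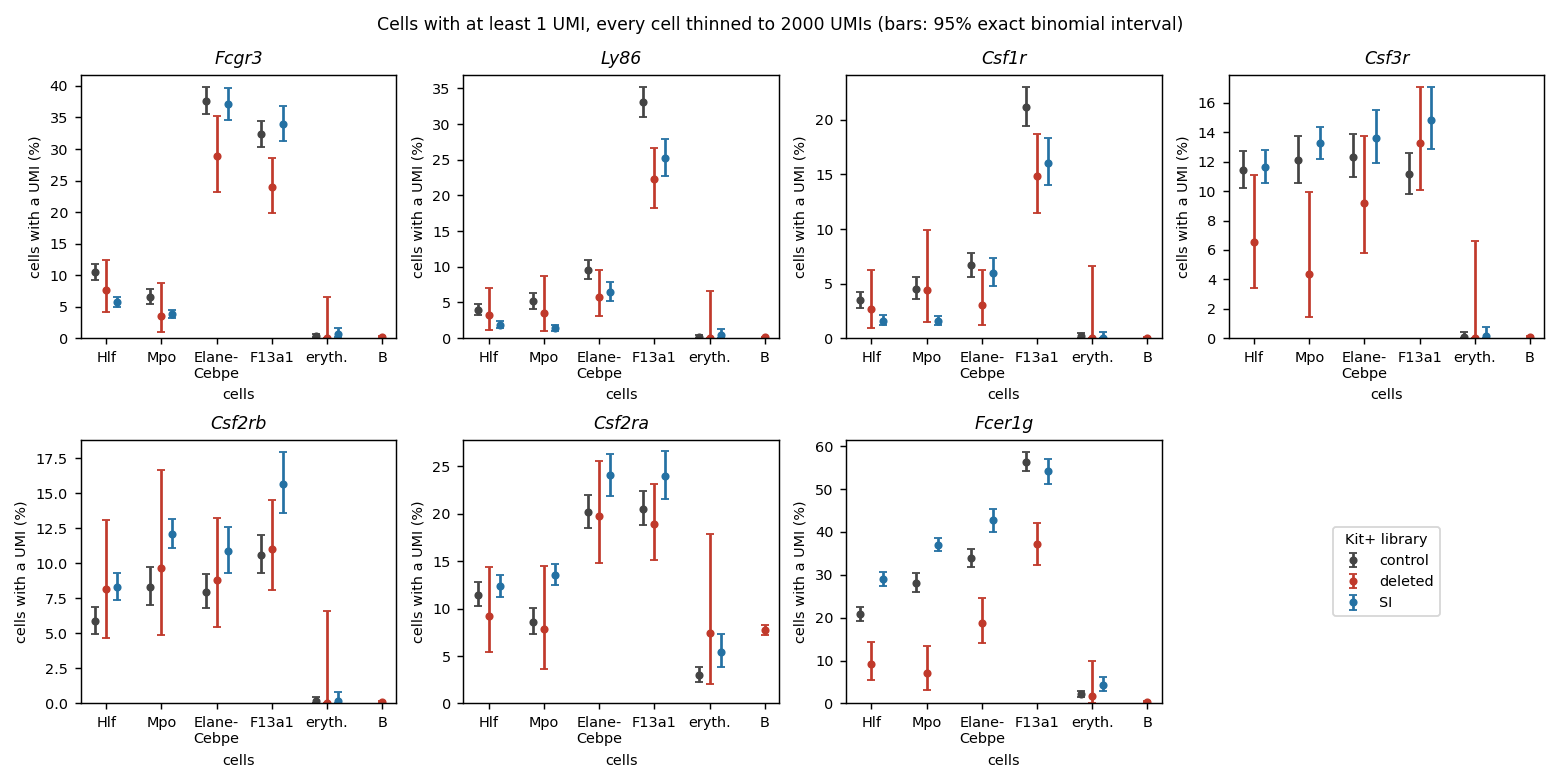
Share of cells with at least 1 UMI of each gene (vertical axis, percent) after thinning every cell to 2000 UMIs, in the 4 gates and in erythroid and B-lineage cells outside the gates, for groups of at least 50 cells; bars are 95% exact binomial intervals. For Csf2ra the share in deleted B-lineage cells, 7.73%, lies next to that of the deleted Mpo gate, 7.89%.

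Over the 12 sums of 4 gates in 3 libraries, the genes closest to each receptor by Pearson correlation of log2(CPM + 1) were sought among 8403 genes. The sums share cells between gates, and each library gives 4 of them, so the values only describe these libraries. Ly86 and Csf1r were each other's closest gene, with r = 0.9986. Fcgr3 was closest to Glrx (0.988), Fam160a2 (0.987) and Pcyt1a (0.980), and Fcer1g to Akr1a1 (0.982), Cyth4 (0.968) and Myo1f (0.965). Rassf4 and Hpcal1 followed for both Ly86 and Csf1r, at 0.984 to 0.989. Csf2ra was closest to Atp8b4 (0.968), Csf3r to Ogfrl1 (0.942) and Csf2rb to Ly6e (0.933). Between Fcgr3 and Fcer1g, which encode parts of the same receptor, r was 0.523.

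The surrounding pathway was taken as 53 further genes for Fc and Toll-like receptor partners, cytokine receptors, signalling proteins and transcription factors. Their ratios are over all cells of each gate. The part of cells with B-lineage or mast cell UMIs in these ratios was not tested. In the deleted library 1 of 33 tested was at least 2-fold higher and 1 lower in the Hlf gate, 1 higher and 3 lower of 37 in the Mpo gate, 0 of 30 in the Elane-Cebpe gate, and 0 higher and 1 lower of 33 in the F13a1 gate. The shares of all genes past the same fold, either way, were 2.74%, 5.05%, 2.07% and 2.38% in these gates. The higher gene was Socs2, a suppressor of cytokine signalling, at 45.3 CPM against 5.29 CPM in the control Hlf gate, a ratio of 8.56 (6.76 to 10.8), and at 52.0 against 1.62 CPM in the Mpo gate. The lower genes included Flt3, the receptor for FLT3 ligand, at 0.463 in the Hlf and 0.294 in the F13a1 gate, and in the Mpo gate Tyrobp and Cd180. Median log2 ratios over the tested genes were -0.14, -0.19, -0.19 and -0.18 from the Hlf to the F13a1 gate, beside 0.012, 0.073, 0.0042 and 0.037 for all genes.

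In SI 2 of 36 were higher in the Hlf gate, 3 higher and 2 lower of 37 in the Mpo gate, and 1 higher of 32 in the Elane-Cebpe gate, beside 1.58%, 2.38% and 0.859% of all genes either way. The higher genes in these gates were Fcer1a, Ms4a2 and Csf2rb2. The lower ones, in the Mpo gate, included the transcription factor gene Cebpb at 0.472 (0.429 to 0.520). The median log2 ratios were 0.024, -0.079, 0.016 and 0.15 from the Hlf to the F13a1 gate, beside 0.029, 0.0086, 0.023 and 0.039 for all genes.

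Over all cells of each gate, the transcription factor genes Spi1, Cebpa and Irf8 each differed less than 2-fold. Spi1, which encodes PU.1, had deleted ratios of 1.02, 0.877, 1.10 and 1.05 and SI ratios of 1.11, 1.16, 1.17 and 1.13. Cebpa had deleted ratios of 0.962, 0.758, 0.906 and 0.943 and SI ratios of 0.993, 1.10, 1.13 and 1.25. Irf8, a factor of monocyte and dendritic cell development, was below control in all gates of both libraries, with deleted ratios of 0.909, 0.704, 0.684 and 0.837 and SI ratios of 0.769, 0.579, 0.829 and 0.693. Among these 3 factors Irf8 was the only one lower in every gate of both libraries, and in the deleted Hlf gate its interval, 0.766 to 1.07, included 1.

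The gate thresholds set which cells are counted. The 1528 control cells with exactly 1 Hlf UMI held Fcgr3 at 104 CPM, against 113 CPM in the 8558 with none. In deleted these levels were 67.0 and 15.1 CPM, and in SI 61.7 and 92.9 CPM. Fcer1g stood in the same cells at 159 and 198 CPM in control, 88.5 and 26.8 in deleted and 248 and 327 in SI. Control cells just inside the F13a1 gate, with exactly 2 F13a1 UMIs, held Fcer1g at 262 CPM, Ly86 at 102 CPM and Fcgr3 at 220.01 CPM. Those just outside, with 1 UMI, held them at 166, 44.8 and 163 CPM. Deleted cells just inside held Fcer1g at 173 CPM and those just outside at 47.5 CPM. In SI the levels were 357 and 313 CPM. At the Mpo threshold control cells held Fcer1g at 72.1 CPM just inside, with 5 Mpo UMIs, and at 67.8 CPM just outside, with 4, and SI cells at 218 and 239 CPM. The 12 deleted cells just inside it and the 22 just outside had no Fcer1g UMI, which by the Poisson interval allows up to 37.6 and 20.2 CPM.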

How the data were processed

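The authors deposited raw UMI counts per gene and cell barcode for each library, not normalized, made with Cell Ranger 7.1.0 and build mm10, per the submitters' processing notes. Depth limits the precision as given by the intervals. Of 32285 genes, 32158 had their identifier in GENCODE M21, which was used for positions. Cells needed 1000 UMIs, 500 detected genes and a mitochondrial share of 10% or less. Scrublet gave each a doublet score in scanpy 1.11.5, with an expected share of 8%, and barcodes scoring 0.25 or more were removed: 840 control, 1168 deleted and 580 SI. Scrublet's own threshold marked 0 deleted and 1 SI barcode, so it had not worked there. Cells in 2 gates counted in both. UMIs were summed per gate and library and divided by all UMIs of those cells. Intervals are 95% exact Poisson for CPM and exact binomial for shares and, conditional on the summed count, for ratios (scipy 1.17.1). With 1 library per group no test was run. The ratio step was tested on simulated data.

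The members, gates and gene lists were chosen with earlier results of these data known. Named genes were the 7 members, up to 6 pathway genes past 2-fold per comparison and gate, a fixed set of 9 partners, relatives and regulators, and the 3 genes most alike each member. Some genes that the rule takes are not reported here. Other settings tried changed doublet removal, cell filters, gates, depth, scaling, weighting, pseudocount and the minimum level. Leaving out cells with B-lineage or mast cell UMIs together, or with any B-lineage UMI, was added after seeing the data.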

Additional observations from a re-analysis of the deposited data

How the results depend on the processing

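The values given here count how many of the 7 genes passed a fold of 2. For deleted against control, the Hlf gate count of 0 became 2 with cells in exactly 1 gate and 1 with stricter gates. The Mpo gate count of 1 became 2 with doublets kept, with all deposited barcodes, with cells in exactly 1 gate and without mast cell UMIs, and 0 with stricter gates, with cells thinned to 4000 UMIs before gating, with 10 CPM added and with a minimum of 50 CPM. It stayed at 1 without B-lineage UMIs, without B-lineage or mast cell UMIs and without any B-lineage UMI, but with another gene and the other direction: Fcgr3, at 0.754, 0.784 and 1.13, no longer passed, and Ly86 at 2.14, Csf2rb at 2.31 (1.48 to 3.47) and Ly86 at 2.03 passed as higher. With the mean over cells Fcgr3, at 0.605, did not pass either, and Fcer1g, at 0.453, passed as lower. The Elane-Cebpe gate count of 1 became 3 with cells in exactly 1 gate, 2 with stricter gates, thinned cells, without mast cell UMIs and without B-lineage or mast cell UMIs, and 0 with doublets kept, all barcodes, without B-lineage UMIs, with the mean over cells, with 10 CPM added and with a minimum of 50 CPM. For SI against control, the Hlf gate count of 0 became 2 with cells in exactly 1 gate. Csf2rb and Fcer1g, each at 2.01, passed there as higher. The count became 1 with stricter gates or thinned cells, where Fcgr3, at 0.415 and 0.456, passed as lower. The Mpo gate count of 2 became 1 without mast cell UMIs, without B-lineage or mast cell UMIs and with 10 CPM added. It became 0 with a minimum of 50 CPM, and 3 with the mean over cells and with cells in exactly 1 gate. With the mean over cells Fcgr3 passed as lower, at 0.498. With cells in exactly 1 gate Csf2ra passed on the higher side at 2.05 (1.83 to 2.30). The counts of the deleted F13a1 gate and of the SI Elane-Cebpe and F13a1 gates stayed at 0 under all settings run. The Fcgr3 ratio of the deleted Mpo gate was 1.13 without any B-lineage UMI, from 8 UMIs in 21 cells. Of the 56 ratios, 0 to 10 per setting changed side of 1, most often without any B-lineage UMI, and 0 to 7 moved by over 1.5 times. The causes were not tested. No paired analysis was possible because each group has 1 library. Depth limits the deleted Mpo gate most, where 3 UMIs are 2.29 CPM.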

Other observations

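Ly86 separated the B-lineage cells outside the gates by library. It stood at 195 CPM in the 30 control cells (95% Poisson interval 135 to 272), at 399 CPM in the 20 SI cells (283 to 545) and at 0.713 CPM in the 12128 deleted cells (0.552 to 0.905). Ly86 with CD180 is known from mature B cells. The control and SI cells had median depths of 4034 and 2695.5 UMIs and the deleted cells 6513 UMIs. Csf2ra stood at 37.1 CPM in the deleted cells (35.9 to 38.3), 22.9 CPM in the control cells (6.24 to 58.6, from 4 UMIs) and 10.2 CPM in the SI cells (0.259 to 56.9, from 1 UMI), and a difference between the libraries was not detectable at this depth.

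Over all kept cells, Fcer1g stood at 187 CPM in control, 28.5 CPM in deleted and 296 CPM in SI, so the whole-library level in the deleted library was much further from control than the level in any gate. Fcgr3 stood at 107, 16.1 and 79.5 CPM and Csf3r at 39.0, 7.03 and 55.3 CPM over the same cells. Csf2ra, which was also found in B-lineage cells, differed less, at 62.5, 43.7 and 91.3 CPM.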
